A study of Caenorhabditis elegans with 36 samples.

Results

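The comparison described here sets 2-day-old adults of one Caenorhabditis elegans strain with expanded CUG repeats, 123CUG strain 2, against adults of both control strains without repeats. It uses 9 of the 36 RNA sequencing libraries of the series, 3 per strain, chosen by their labels, and asks which genes differ from both controls in the same direction. 123CUG strain 2 carries the integrated transgene mgIs84, in which the myo-3 promoter, active in body wall muscle, drives gfp with 123 CUG repeats in its 3' untranslated region. 0CUG strain 1 (mgIs65) and 0CUG strain 2 (mgIs85) carry the same kind of transgene with 0 repeats, so the gfp reporter itself is common to all the animals compared. A second line with repeats, 123CUG strain 1 (mgIs64), enters the same fit and is used for comparison. All animals have the Bristol background, were synchronised with hypochlorite, were fed HT115 bacteria that carried the RNAi vector without an insert, and were collected whole, so that muscle is a part of the RNA only. Each transgene is a single line, and the labels do not say whether the 3 libraries of a strain are separate cultures: the p-values reflect how far these libraries differ among themselves, possibly for technical reasons only, and a transgene's effect cannot be told apart from other differences between lines.

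Expanded CUG repeats in the 3' untranslated region of a protein kinase gene cause myotonic dystrophy in humans. The repeat RNA folds into hairpins that collect in nuclear foci and bind muscleblind proteins, which otherwise regulate alternative splicing and the fate of muscle and neuronal transcripts. In worms the single muscleblind gene is mbl-1, and repeats expressed from a muscle promoter serve as a model of the toxic RNA. The series names carnitine palmitoyltransferase, which moves long-chain fatty acids into mitochondria, as a point of interest.

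The 9 libraries held 26942286 to 42123440 reads. Replicate 2 of 123CUG strain 2 and replicate 2 of 0CUG strain 1 stood apart from the other 7: ribosomal RNA took 0.306% and 0.219% of their reads against 1.07% to 2.28%, and 17228 and 18175 genes had reads against 14997 to 16167. Genes that were no longer called against both controls without these libraries are named as such where they are described. The control strains themselves differed widely: of 14070 genes tested, 3139 were called higher and 3137 lower in 0CUG strain 1 than in 0CUG strain 2 (22.3% each, together 44.6%), a split that became 2121 and 3439 with upper-quartile scaling, which moved the median of all genes by -0.11 on the log2 scale. Vitellogenins, the yolk proteins made by the adult intestine, took 10.1% to 11.7% of reads in 123CUG strain 2, 6.47% to 8.17% in 0CUG strain 1 and 13.9% to 16.8% in 0CUG strain 2.

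In 123CUG strain 2 adults, 116 genes were higher than in both 0CUG strains and 71 were lower, with an adjusted p under 0.05 in each pair. These are 1.33% of the genes tested (0.824% higher and 0.505% lower). The rises were larger: 72 of 116 were at least 2-fold against both controls and 43 at least 4-fold, whereas 29 of 71 falls reached 2-fold and 8 reached 4-fold. Nearly all were protein-coding genes. In 107 of the 116 and 62 of the 71, the 3 libraries of strain 2 did not overlap the 6 control libraries. Such a gap was found in 4.38% of all genes tested, 2.65% on the high side and 1.73% on the low side. The same libraries made the calls, so a gap in most called genes follows largely from their selection and is no separate evidence. In whole animals, more cells of a type and more RNA per cell cannot be told apart.

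**Figure D1:**
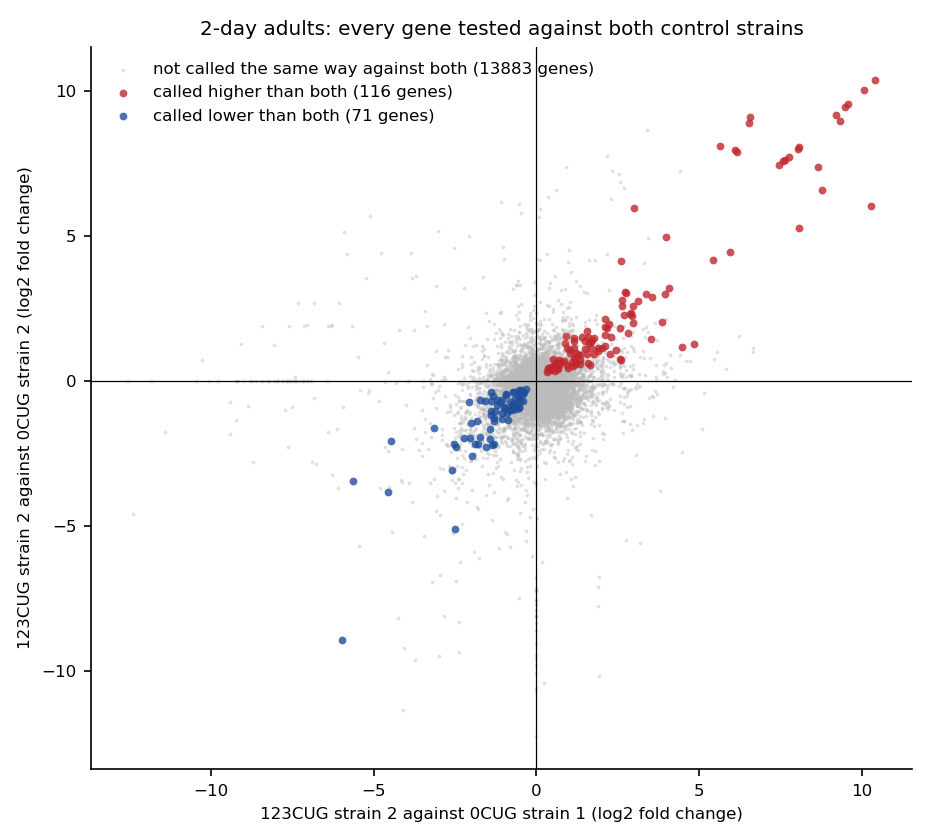
Log2 fold change of 123CUG strain 2 adults against 0CUG strain 1 (horizontal axis) and against 0CUG strain 2 (vertical axis), 1 point per gene tested. Red points are the 116 genes called higher than both controls and blue points the 71 called lower. The axes share the 3 libraries of strain 2, and points beyond about 7 on both axes include genes with no control reads, whose fitted values depend on the prior count.

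Against 0CUG strain 1 alone, 1281 genes (9.10%) were higher and 680 (4.83%) lower in 123CUG strain 2, together 13.9% of those tested. Against 0CUG strain 2 alone, 1378 (9.79%) were higher and 1480 (10.5%) lower, together 20.3%, or 880 and 1650 with upper-quartile scaling. Against the mean of both controls, 347 genes (2.47%) were higher and 286 (2.03%) lower, together 4.50%. Many genes stood between the controls: 436 were higher than in 0CUG strain 1 and lower than in 0CUG strain 2, and 34 the reverse. The authors' deposited tables call 1161 genes higher and 791 lower in the pair with 0CUG strain 1, and 850 higher and 1430 lower in the pair with 0CUG strain 2. The agreeing set depends on single libraries: leaving out each adult library in turn gave 77 to 126 higher and 38 to 91 lower genes. The count of higher genes fell to 77 without replicate 2 of 123CUG strain 2. That of lower genes fell to 38 without its replicate 1, to 43 without replicate 3 of 0CUG strain 2 and to 47 without replicate 1 of 0CUG strain 1. Without both replicate 2 libraries that stood apart, 65 higher and 51 lower genes were called, of which 64 and 37 are among the 116 and the 71. Agreement survived every one of the 12 omissions for 62 of the 116 rises and 18 of the 71 falls.

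Of 49 tested body wall muscle genes, 1 was called higher than both controls and 0 lower, beside 0.824% and 0.505% of all genes. That gene, unc-98 (F08C6.7, chromosome X, 7570376 to 7573676) encodes a zinc-finger protein of the muscle M-line and nucleus. It stood at 34.8, 30.9 and 16.3 CPM in strain 2, 7.69, 11.6 and 9.94 in 0CUG strain 1 and 8.92, 12.5 and 9.93 in 0CUG strain 2. Every strain 2 library was above every control library, with log2 differences of 1.48 ± 0.23 (SE) from 0CUG strain 1 and 1.39 ± 0.24 from 0CUG strain 2 (adjusted p = 0.000166 and 0.000407). In the deposited coordinates unc-98 overlaps pcyt-1 on the other strand, and reads of the pair cannot be told apart. gar-2 (F47D12.1, chromosome III, 6309378 to 6320871), a muscarinic acetylcholine receptor, stood at 4.99, 8.64 and 5.61 CPM in strain 2, 1.42, 1.52 and 1.36 in 0CUG strain 1 and 1.88, 1.74 and 1.8 in 0CUG strain 2. The groups did not overlap, and gar-2 had log2 differences of 2.16 ± 0.30 (SE) from 0CUG strain 1 and 1.83 ± 0.30 from 0CUG strain 2 (adjusted p = 4.69e-05 and 0.000322). It overlaps C56G2.5 on the other strand in the deposited coordinates. ric-3 (T14A8.1, chromosome IV, 7818251 to 7821161), an endoplasmic reticulum chaperone needed for nicotinic receptors to mature, showed 7.21, 7.81 and 6.77 CPM in strain 2, 2.44, 2.87 and 2.11 in 0CUG strain 1 and 1.98, 2.52 and 2.05 in 0CUG strain 2. No strain 2 library overlapped a control library, with log2 differences of 1.55 ± 0.27 (SE) from 0CUG strain 1 and 1.73 ± 0.27 from 0CUG strain 2 (adjusted p = 0.000395 and 0.000196). Of 25 tested genes of the neuromuscular junction and muscle excitation, the list that holds the nicotinic receptor subunits of muscle, 0 agreed in either direction, beside 1.33% of all genes.

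elp-1 (F38A6.2, chromosome V, 20764955 to 20770161), a microtubule-binding protein of the EMAP family, was read at 48.9, 50.4 and 34.8 CPM in strain 2, 7.09, 7.83 and 7.51 in 0CUG strain 1 and 10.5, 15 and 12 in 0CUG strain 2. Its strain 2 libraries were all higher, with log2 differences of 2.58 ± 0.19 (SE) from 0CUG strain 1 and 1.84 ± 0.18 from 0CUG strain 2 (adjusted p = 9.45e-09 and 8.5e-07). igcm-3 (T02C5.3, chromosome X, 2698895 to 2705866), an immunoglobulin-domain cell adhesion protein, stood at 23.8 CPM on average in strain 2 against 8.93 and 8.32, with log2 differences of 1.41 ± 0.19 (SE) from 0CUG strain 1 and 1.52 ± 0.19 from 0CUG strain 2 (adjusted p = 2.61e-05 and 1.93e-05). myo-3 (K12F2.1, chromosome V, 12226816 to 12234343), the myosin heavy chain whose promoter drives the transgenes, had 13.5, 11.6 and 8.48 CPM in strain 2, 14.5, 15.3 and 15 in 0CUG strain 1 and 10.9, 16.396 and 14.9 in 0CUG strain 2. The groups overlapped and myo-3 was not called against either control (adjusted p = 0.186 and 0.258). Over the muscle list as a group, 2 members were higher and 8 lower than in 0CUG strain 1, and 2 higher and 4 lower than in 0CUG strain 2, beside 9.10% higher and 4.83% lower, and 9.79% higher and 10.5% lower, over all genes. The medians were -0.20 and -0.028 on the log2 scale.

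Among the other named rises, cup-4 (C02C2.3, chromosome III, 7866509 to 7868727) encodes a ligand-gated ion channel homologue required for fluid uptake by coelomocytes, the scavenger cells of the body cavity. It was read at 45.7, 51.7 and 46.9 CPM in strain 2, 6.52, 6.84 and 6.37 in 0CUG strain 1 and 7.96, 11.1 and 9.96 in 0CUG strain 2. All 3 strain 2 values exceeded all 6 control values, with log2 differences of 2.87 ± 0.18 (SE) from 0CUG strain 1 and 2.32 ± 0.17 from 0CUG strain 2 (adjusted p = 9.04e-10 and 1.56e-08). aps-3 (Y48G8AL.14, chromosome I, 1155343 to 1156020), the small subunit of the AP-3 adaptor that sorts cargo to lysosome-related organelles, had 167, 151 and 174.1 CPM in strain 2, 57.3, 47.9 and 58.3 in 0CUG strain 1 and 62.2, 52.6 and 56.8 in 0CUG strain 2. Strain 2 was clear of both controls, with log2 differences of 1.59 ± 0.12 (SE) from 0CUG strain 1 and 1.52 ± 0.12 from 0CUG strain 2 (adjusted p = 1.02e-08 and 3.14e-08).

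A few genes with roles in secretion, outside the naming rule and picked after their values were seen, were also called higher; no list of such genes was measured as a group. hid-1 (K02E10.2, chromosome X, 2489044 to 2493522), needed for dense-core vesicles, stood at 50.8, 52.9 and 32.4 CPM in strain 2 against 9.53, 11.4 and 10.4 and 17.8, 19.4 and 21.1 in the controls (adjusted p = 4.15e-08 and 5.31e-05). nlp-40 (Y74C9A.2, chromosome I, 10413 to 16842), a peptide secreted by the intestine that times defecation, stood at 763, 659.9 and 453 CPM against 190.3, 199 and 233 and 347, 438 and 442 (adjusted p = 5.14e-07 and 0.00756). sbt-1, a chaperone of the peptide-processing convertase that overlaps grl-14 on the other strand, averaged 27.2 CPM against 12.24 and 15.8, and nex-1, an annexin, 561 CPM against 199.7 and 258. In all 4 genes strain 2 was above both control strains in every library. nlp-40 and sbt-1 were no longer called against both without the replicate 2 libraries that stood apart, and sbt-1 agreed in 7 of the 12 fits that left out 1 library, lost without replicate 1 or 2 of 123CUG strain 2 or any replicate of 0CUG strain 2. Of 29 FMRFamide-like neuropeptide genes, 0 rose and 1 fell: flp-6 (F07D3.2, chromosome V, 9471973 to 9473808), read at 73.2, 77.5 and 67.2 CPM in strain 2, 168, 195 and 212 in 0CUG strain 1 and 85.6, 109.8 and 86.9 in 0CUG strain 2, with log2 differences of -1.399 ± 0.12 (SE) from 0CUG strain 1 and -0.37 ± 0.12 from 0CUG strain 2 (adjusted p = 6.52e-08 and 0.0301). Its agreement ended without replicate 1 or replicate 3 of 123CUG strain 2 or replicate 2 of 0CUG strain 2.

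In metabolism, acox-1.2 (F08A8.2, chromosome I, 12942280 to 12946585), a peroxisomal acyl-CoA oxidase that shortens the side chains of ascaroside pheromones, was the one gene of 28 of peroxisomal beta-oxidation that rose against both. It had 55.9, 60.7 and 34.6 CPM in strain 2, 11.5, 14.5 and 14.9 in 0CUG strain 1 and 18.1, 27.5 and 22.7 in 0CUG strain 2. The 3 strain 2 libraries lay above the controls, with log2 differences of 1.88 ± 0.20 (SE) from 0CUG strain 1 and 1.15 ± 0.19 from 0CUG strain 2 (adjusted p = 2.88e-06 and 0.000567). Its list went the other way against 0CUG strain 2, where 15 of 28 were lower and 1 higher, beside 10.5% lower and 9.79% higher over all genes. dhs-26 (ZK816.5, chromosome X, 3360685 to 3362493), a short-chain dehydrogenase, was at 21.9, 24 and 21.5 CPM in strain 2, 2.96, 3.44 and 4.45 in 0CUG strain 1 and 2.05, 3.81 and 3.78 in 0CUG strain 2. No library overlapped, with log2 differences of 2.64 ± 0.24 (SE) from 0CUG strain 1 and 2.81 ± 0.24 from 0CUG strain 2 (adjusted p = 1.24e-07 and 1.5e-07). rpl-17 (Y48G8AL.8, chromosome I, 1156577 to 1157462), a protein of the large ribosomal subunit, stood at 4239, 3624 and 3384 CPM in strain 2, 1564, 1679 and 1846 in 0CUG strain 1 and 1594, 1409 and 1287 in 0CUG strain 2. It was 2.21-fold and 2.62-fold higher, with log2 differences of 1.14 ± 0.12 (SE) from 0CUG strain 1 and 1.39 ± 0.13 from 0CUG strain 2 (adjusted p = 1.95e-06 and 2.78e-07). Of the 76 ribosomal protein genes tested, rpl-17 alone was called against both: 2 were higher and 3 lower than in 0CUG strain 1, and 42 higher and 0 lower than in 0CUG strain 2. Over all genes, 9.10% were higher and 4.83% lower than in 0CUG strain 1, and 9.79% higher and 10.5% lower than in 0CUG strain 2. Between the controls, 26 of the 76 were higher and 1 lower in 0CUG strain 1. Also higher against both, and named here after their values were seen, were bas-1, the aromatic amino acid decarboxylase of serotonin and dopamine synthesis (87.2 CPM against 23.2 and 43), and folt-2, a folate transporter (1056 CPM against 696 and 686). folt-2 overlapped the controls in at least 1 library and lost its agreement without replicate 1 or 2 of strain 2 or replicate 1 of 0CUG strain 1, and without both replicate 2 libraries that stood apart.

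Named members of the immune lists were called in both directions. sysm-1 (T24B8.5, chromosome II, 9082682 to 9083142), which encodes a small secreted ShK-domain peptide and is a widely used output of the intestinal p38 pathway, fell. It was read at 19.1, 19.8 and 23.9 CPM in strain 2, 92.5, 82.5 and 115.3 in 0CUG strain 1 and 80.5, 91.9 and 72.4 in 0CUG strain 2. Strain 2 stood below every control library, with log2 differences of -2.21 ± 0.14 (SE) from 0CUG strain 1 and -1.96 ± 0.13 from 0CUG strain 2 (adjusted p = 9.04e-10 and 5.59e-09). It was the 1 member of 19 tested p38 pathway genes that agreed. clec-190 (M199.4, chromosome IV, 15124933 to 15126121), a C-type lectin-like gene, fell from 56.5, 81.8 and 77.2 and 64.2, 81.1 and 68.9 CPM in the controls to 27.3, 34.6 and 26.1, with log2 differences of -1.29 ± 0.14 (SE) from 0CUG strain 1 and -1.28 ± 0.14 from 0CUG strain 2 (adjusted p = 2.3e-06 and 4.24e-06). lys-3 (Y22F5A.6, chromosome V, 10282204 to 10283448), a lysozyme, and outside the naming rule, was at 0.471 CPM on average against 2.92 and 4.05 (adjusted p = 0.00542 and 0.00172).

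Others were higher. spp-5 (T08A9.9, chromosome X, 7319933 to 7320384), a saposin-like pore-forming peptide that kills ingested bacteria, had 1684, 1502 and 1128 CPM in strain 2, 656, 628 and 804 in 0CUG strain 1 and 682, 779 and 742 in 0CUG strain 2. It was above the controls in each library, with log2 differences of 1.05 ± 0.14 (SE) from 0CUG strain 1 and 0.97 ± 0.14 from 0CUG strain 2 (adjusted p = 2.1e-05 and 7.37e-05). fipr-13 (F57A8.8, chromosome V, 10064503 to 10064939), of a family of small peptides named for induction by fungus, had 59.5, 49.1 and 49.7 CPM in strain 2, 11, 10.6 and 15.4 in 0CUG strain 1 and 15.9, 18.3 and 18.9 in 0CUG strain 2, again with no overlap and with log2 differences of 2.101 ± 0.16 (SE) from 0CUG strain 1 and 1.58 ± 0.16 from 0CUG strain 2 (adjusted p = 1.22e-08 and 7.47e-07). Of 35 lysozyme and saposin genes, 2 agreed as higher (spp-5, and spp-11, which was at a low level and not called without both replicate 2 libraries that stood apart) and 1 as lower (lys-3). Of 101 C-type lectin genes, 1 was higher (clec-10) and 2 lower (clec-190 and clec-232). The call of clec-10, 21.1 CPM against 6.72 and 14.2, held in 5 of the 12 fits without 1 library (not without replicate 1 or 2 of 123CUG strain 2, any replicate of 0CUG strain 1 or replicate 1 or 3 of 0CUG strain 2) and was lost with upper-quartile scaling and without both replicate 2 libraries that stood apart. nlp-34, an epidermal antimicrobial peptide, was lower at 1.57 CPM against 4.24 and 6.24, as the 1 agreeing gene of 18 of its list; its call ended without replicate 2 or 3 of 123CUG strain 2 or replicate 1 or 3 of 0CUG strain 1.

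**Figure D2:**
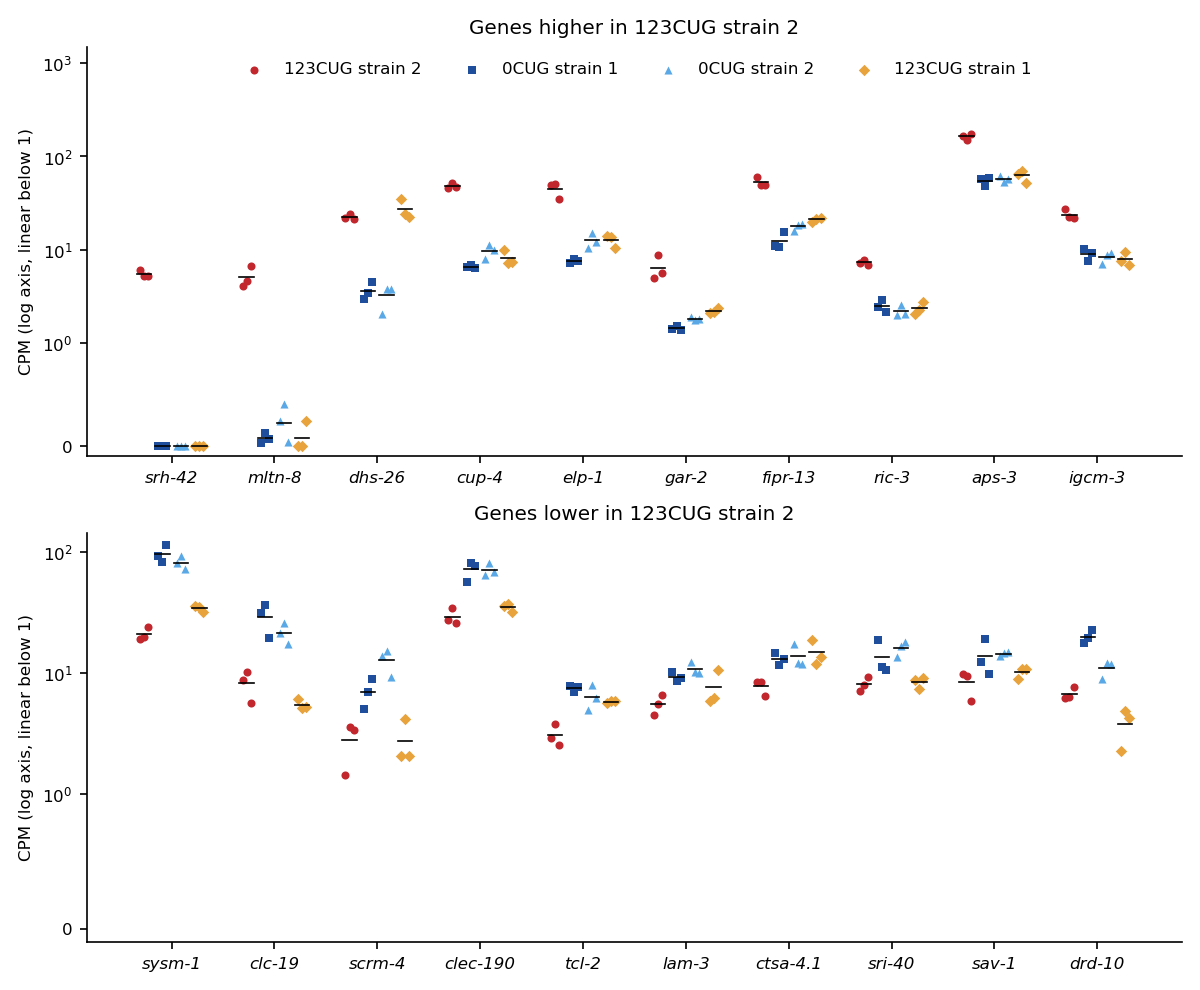
CPM of the 10 named rises (upper panel) and the 10 named falls (lower panel) in each adult library, on an axis that is logarithmic above 1 CPM and linear below. Each marker is a library, 3 per strain, and the short lines are means. By the choice of genes, the 3 strain 2 libraries do not overlap the 6 control libraries. 123CUG strain 1 stands near strain 2 for some genes, such as dhs-26 and scrm-4, and near the controls for others, such as cup-4.

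The other named falls had varied roles. clc-19 (T24C4.4, chromosome III, 872622 to 873531), a claudin-like junction protein, had 8.81, 10.2 and 5.72 CPM in strain 2, 31.5, 36.6 and 19.4 in 0CUG strain 1 and 21.7, 25.8 and 17.5 in 0CUG strain 2. Strain 2 was lower throughout, with log2 differences of -1.83 ± 0.24 (SE) from 0CUG strain 1 and -1.39 ± 0.23 from 0CUG strain 2 (adjusted p = 1.77e-05 and 0.000406). scrm-4 (F11A6.2, chromosome I, 11680504 to 11682364), of the phospholipid scramblase family, had 1.46, 3.62 and 3.37 CPM in strain 2, 5.04, 6.94 and 9.03 in 0CUG strain 1 and 13.8, 15.4 and 9.26 in 0CUG strain 2, with log2 differences of -1.31 ± 0.34 (SE) from 0CUG strain 1 and -2.18 ± 0.35 from 0CUG strain 2 (adjusted p = 0.0131 and 0.000272). It lies opposite kpc-1, and its call ended without replicate 1 of 123CUG strain 2 or replicate 3 of 0CUG strain 1. tcl-2 (Y38C1AA.4, chromosome IV, 179008 to 183251), required for divisions of the T cell lineage, averaged 3.08 ± 0.65 CPM (SD, n = 3) against 7.5 ± 0.461 and 6.39 ± 1.47, with log2 differences of -1.28 ± 0.24 (SE) from 0CUG strain 1 and -1.05 ± 0.24 from 0CUG strain 2 (adjusted p = 0.000968 and 0.00488). Both clc-19 and tcl-2 agreed in all 12 fits that left out 1 library.

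Agreement of the other named falls ended when single libraries were left out. ctsa-4.1, of the cathepsin A family, stood at 7.8 CPM against 13.1 and 13.7, and its agreement ended without replicate 3 of 123CUG strain 2 or replicate 1 or 3 of 0CUG strain 1. sri-40, a chemoreceptor gene, stood at 8.09 CPM against 13.5 and 16.18, and was lost without replicate 1 or 2 of 123CUG strain 2 or replicate 1 of 0CUG strain 1. drd-10, which overlaps anr-21 on the other strand, at 6.76 CPM against 20.04 and 11, was lost without replicate 1 or 2 of 123CUG strain 2 or replicate 2 or 3 of 0CUG strain 2. lam-3, a laminin alpha subunit of basement membranes, at 5.54 CPM against 9.32 and 10.9, agreed in 6 of the 12 fits; it was lost without replicate 1 or 2 of 123CUG strain 2, any replicate of 0CUG strain 1 or replicate 3 of 0CUG strain 2. sav-1, the Salvador homologue of Hippo signalling, at 8.44 CPM against 13.7 and 14.5, agreed in 1, the fit without replicate 3 of 0CUG strain 1. None of these 5 was called against both without the replicate 2 libraries that stood apart.

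Single members of further lists were called. col-135 (M199.5, chromosome IV, 15129662 to 15131786), the 1 of 96 tested cuticle collagens that agreed, fell to 17, 23 and 13.2 CPM from 24.9, 28.7 and 29.4 in 0CUG strain 1 and 31, 37.3 and 34.8 in 0CUG strain 2, with log2 differences of -0.64 ± 0.17 (SE) from 0CUG strain 1 and -0.95 ± 0.17 from 0CUG strain 2 (adjusted p = 0.0118 and 0.000567); the call ended without replicate 1 of 123CUG strain 2 or replicate 2 or 3 of 0CUG strain 1. puf-5 (F54C9.8, chromosome II, 8575541 to 8577722), an RNA-binding repressor of the oocyte, stood at 224 CPM against 369 and 293, as 1 of 23 oocyte and early embryo genes. It was lost without replicate 2 of 123CUG strain 2 or replicate 1 or 3 of 0CUG strain 2. Among 56 glucuronosyltransferases, which conjugate lipophilic compounds, ugt-26 was higher (74.6 CPM against 47.6 and 54.2) and ugt-43 lower (29.2 CPM against 73.9 and 41.5). ugt-26 was lost without replicate 2 of 123CUG strain 2 or replicate 1 or 3 of 0CUG strain 2, and ugt-43 without replicate 1 or 3 of 123CUG strain 2 or replicate 2 or 3 of 0CUG strain 2. gst-24, the 1 of 32 glutathione S-transferases called higher, at 11.4 CPM against 5.31 and 7.29, lost its call in each of the 12 omissions. Without both replicate 2 libraries that stood apart, puf-5, ugt-26 and gst-24 were not called.

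A set of genes was read in 123CUG strain 2 and hardly or not at all in the controls. Of the 116 higher genes, 11 had no read in any of the 6 control adult libraries. The fold is then a lower bound, set by 3 reads over the 6 control libraries. Chemoreceptor and peptide receptor genes, which code for G protein-coupled receptors mostly known from sensory neurons in worms, make up much of this set, a grouping made after the values were seen. srh-42 (Y54G11A.15, chromosome II, 14287632 to 14289068) had 5.97, 5.14 and 5.22 CPM in strain 2, at least 355-fold higher than the controls, and it had the largest fitted rise of any gene called. sre-24 (F37B4.9, chromosome V, 2884711 to 2886425) had 4.84, 2.61 and 5.47 CPM, at least 281-fold higher. str-174 and str-170 (Y17G9A.7, chromosome IV, 4872267 to 4873764, and T08B6.7, chromosome IV, 4877402 to 4880315) had 3.38, 1.99 and 3.22 CPM and 2.55, 2.41 and 2.14 CPM, at least 187-fold and 154-fold higher. dmsr-11 (ZC404.11, chromosome V, 6802412 to 6804096), of a family related to insect myosuppressin receptors, had 3.24, 3.03 and 2.97 CPM and was at least 201-fold higher. Each of these 5 was called in every omission, in every other setting tried and without both replicate 2 libraries that stood apart. They passed the low-count filter only through the strain 2 libraries and were picked for having no control read. Their calls in the refits follow largely from that choice and are no separate evidence.

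srd-16 (which overlaps grd-9 on the other strand), odr-10 (the receptor for diacetyl), oac-4, F35E8.9, M153.3 and F46F5.1 also had no control read, with means of 0.698 to 1.07 CPM in strain 2, and these 6 were no longer called against both without the replicate 2 libraries that stood apart. Other genes had few control reads. K10G4.5 (chromosome V, 17298341 to 17301475) had 10.3, 10.6 and 7.75 CPM in strain 2 and at most 0.185 CPM in a control library. F49B2.3 had 10.8, 7.16 and 8.55 CPM and at most 0.162 CPM, and F32B4.1 10.4, 8.08 and 7.68 CPM and at most 0.148 CPM. mltn-8 (Y39D8B.3, chromosome V, 374408 to 379672), named for similarity to mlt-10, which acts in moulting, had 4.04, 4.63 and 6.59 CPM and at most 0.407 CPM in a control. In the other direction, Y113G7A.16 (chromosome V, 20037587 to 20039419) had no read in strain 2. It stood at 0.241, 0.19 and 0.325 CPM in 0CUG strain 1 and 2.15, 2.26 and 1.55 in 0CUG strain 2, was at least 33.1-fold lower than their mean given 3 reads over the 3 libraries, and was not called against both without the replicate 2 libraries that stood apart.

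The same genes were read in larvae of strain 2. At L4, the last larval stage, srh-42 stood at 3.58, 4.81 and 5.16 CPM, sre-24 at 20.01, 23.2 and 24.3 CPM and str-170 at 21.6, 22.6 and 21.4 CPM in 123CUG strain 2. In the 6 control L4 libraries sre-24 and str-174 had no read and the other 3 of these receptor genes averaged at most 0.196 CPM in a strain. The stage interaction was not called for any of the 5 (adjusted p from 0.139 to 1). With no control read in adults, its value depends on the prior count. The test therefore cannot show whether the difference was the same at both stages. In adults of the other line with repeats, 123CUG strain 1, srh-42, sre-24, str-174 and str-170 had no read, and dmsr-11 averaged 0.0249 CPM.

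**Figure D3:**
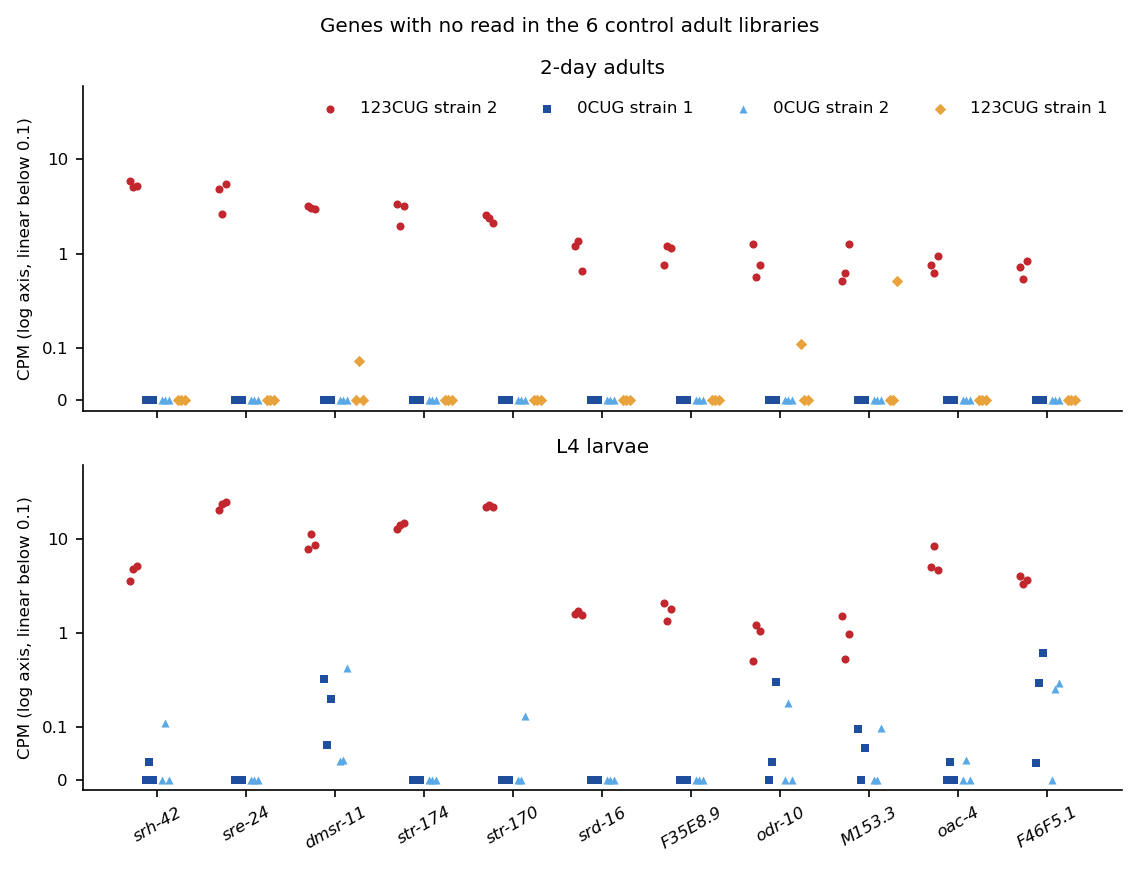
CPM of the 11 genes without reads in the control adults, in 2-day adults (upper panel, 4 strains) and L4 larvae (lower panel, 3 strains), 1 marker per library, on an axis that is logarithmic above 0.1 CPM and linear below. The strain 2 libraries stand above the controls at both stages, while control values are 0 in adults by the choice of genes and at or near 0 at L4.

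Some agreeing genes were neighbours. With a gap of at most 20 kb between them, 48 of the 187 fell into 21 runs, 34 of the rises and 14 of the falls. How many of any 187 tested genes would lie this close was not measured. Some runs mixed a rise and a fall: lam-3 with cutl-14, ced-6 with bas-1, F57G4.11 with fbxa-192 and T22B7.3 with T22B7.7, beside 1 described below. Of these genes, lam-3, cutl-14 and T22B7.3 were not called without both replicate 2 libraries that stood apart. cutl-14 agreed in 3 of the 12 omissions. The longest all-rising runs held 4 genes each. One (build WBcel235, chromosome V, 2872465 to 2886425) held folt-2, F37B4.10, ifc-1 and sre-24, and every gene tested inside it was called higher. F37B4.10 stood at 19.997 CPM against 8.32 and 10.8, and ifc-1, an intermediate filament protein, at 12.5 CPM against 2.29 and 6.04. The call of ifc-1 ended without replicate 1 of strain 2 or replicate 1 or 2 of 0CUG strain 2. ugt-53 before the run and C31B8.7 after it were not called against both. The other (chromosome V, 17339084 to 17360317) held F47H4.7, fbxa-189, lsy-27 and F47H4.2, with 4 more genes between them that did not agree. After it, F47H4.12 was higher than in 0CUG strain 1 and lower than in 0CUG strain 2 (2.52 CPM against 0.06 and 8). Y20C6A.1, the next gene tested, was called higher than in 0CUG strain 1 only (11.2 CPM against 2.04 and 7.27). F47H4.2 stood at 14.8, 15.7 and 7.97 CPM against 0.241, 0.865 and 0.552 and 4.75, 6.55 and 5.76, and it lost its agreement without replicate 2 of strain 2. F47H4.7 and fbxa-189 were lost without the replicate 2 libraries that stood apart, and lsy-27 agreed in all 12 omissions.

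Pairs of neighbours were also seen. aps-3 and rpl-17 (chromosome I, 1155343 to 1157462) lie head to head on opposite strands, and their rises of 3.01-fold and 2.21-fold against 0CUG strain 1 were not shared by znf-236 before them or Y48G8AL.7 after them. Y17D7B.7 and Y17D7B.10 (chromosome V, 18780490 to 18784811) rose together: Y17D7B.7 stood at 91.3, 81.1 and 73.4 CPM against 5.7, 4.3 and 5.65 and 1.74, 2.96 and 3.11, and Y17D7B.10 at 16.3, 16.096 and 9.74 CPM with at most 0.074 CPM in a control. Y71A12B.24 with Y71A12B.23 (chromosome I, 13927091 to 13928746), F46F5.15 with F46F5.1 (chromosome II, 788439 to 791982), dmsr-10 with dmsr-11 (chromosome V, 6800724 to 6804096) and F43D2.6 with F43D2.3 (chromosome V, 14629799 to 14635173) were further pairs of rises, of which Y71A12B.24, F46F5.1 and dmsr-10 were not called without the replicate 2 libraries that stood apart. str-174 and str-170 lie in one run (chromosome IV, 4859255 to 4880315) beside Y17G9A.4, which was lower at 2.53 CPM against 5.04 and 4.75, a call that was lost without both replicate 2 libraries that stood apart and held in 2 of the 12 omissions (without replicate 1 of 123CUG strain 1 or replicate 2 of 123CUG strain 2). Among the falls, clec-190, M199.9 and col-135 (chromosome IV, 15124933 to 15131786) were lower side by side. F43D2.6 and F43D2.3 overlap on opposite strands, so their reads cannot be told apart. By chromosome, V held 46 of the 116 rises, 1.65% of its 2784 genes tested, against 0.482% to 0.720% on the other nuclear chromosomes; for falls the shares ran from 0.390% on X to 0.682% on V.

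**Figure D4:**
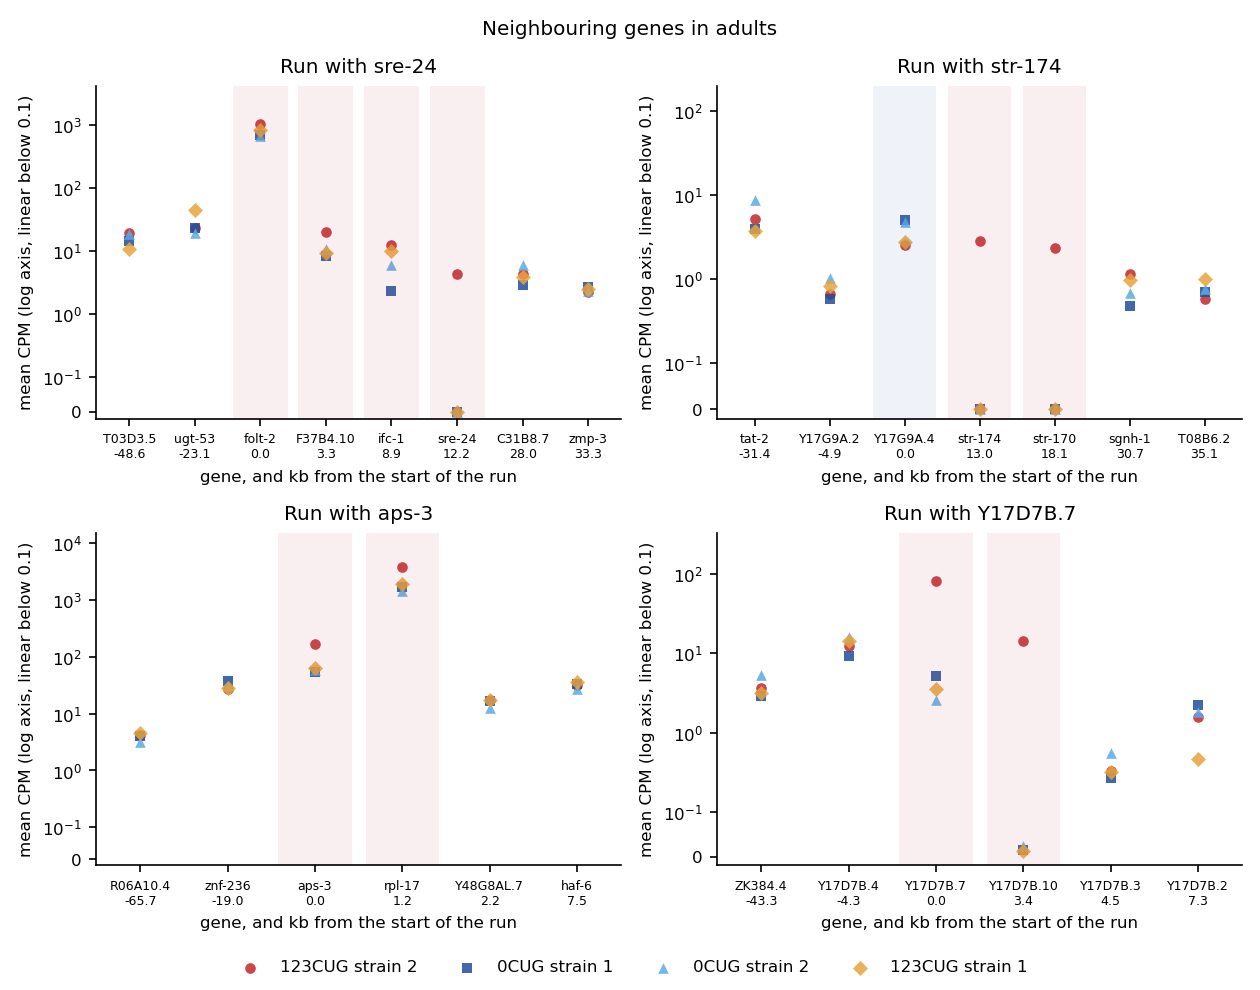
Mean CPM in adults (vertical axis, logarithmic above 0.1 CPM and linear below) of genes in 4 runs and of the nearest genes tested on either side, in genomic order with the distance of each start from the start of the run in kb under its name. Red shading marks genes called higher than both controls and blue shading genes called lower. By the calls, strain 2 differs from both control strains inside the shading. 123CUG strain 1 can lie near strain 2 there, as for Y17G9A.4 (2.75 and 2.53 CPM). Flanking genes can differ between strains too, as ugt-53 does (44.4 CPM in 123CUG strain 1 and 19.5 in 0CUG strain 2).

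Against the other line with the same number of repeats, 123CUG strain 1, 759 genes of 14070 were called (5.39%), 272 higher (1.93%) and 487 lower (3.46%) in strain 2. The strain 2 libraries that chose the agreeing genes are also part of this comparison, so the choice itself favours further calls here. Of the 116 genes higher than both controls, 65 were also higher than in 123CUG strain 1, and of the 71 lower genes 11 were also lower, together 0.540% of all genes (0.462% and 0.0782%). By the naming rule, which orders genes with a gene name and at least 5 CPM by their smaller difference from the controls, the first 5 of these rises were cup-4, elp-1, gar-2, mltn-8 and srh-42. cup-4 stood at 9.84, 7.09 and 7.39 CPM in 123CUG strain 1, a log2 difference of 2.57 ± 0.17 (SE, adjusted p = 2.39e-09). Among the falls, sysm-1 stood at 35.8, 34.9 and 32.3 CPM in 123CUG strain 1, with a difference of -0.71 ± 0.13 (adjusted p = 0.00162). The other 10 of these falls were tcl-2, ctsa-4.1, col-135, fbxa-192, flp-6, ugt-43, egl-8, pgp-14, C29F5.1 and Y54F10AM.11, of which the last 4 are outside the naming rule. pgp-14 agreed against the controls in 3 of the 12 omissions. Its agreement was lost with upper-quartile scaling and without both replicate 2 libraries that stood apart. That of Y54F10AM.11 ended without replicate 2 of 123CUG strain 2. fbxa-192, an F-box gene at 9.35 CPM against 31.1 and 14.7, lost its agreement against the controls without replicate 1 of strain 2 or replicate 1 or 3 of 0CUG strain 2. In the opposite direction, 3 of the rises were lower, and 2 of the falls higher, than in 123CUG strain 1. dhs-26, acox-1.2 and spp-5 were not called between the lines with repeats: dhs-26 had 34.7, 24 and 22.1 CPM in 123CUG strain 1 (log2 difference -0.26 ± 0.22, adjusted p = 0.584), acox-1.2 had 69.2, 68.3 and 53.3 CPM (-0.33 ± 0.19, adjusted p = 0.371) and spp-5 had 1569, 1621 and 1444 CPM (-0.10 ± 0.14, adjusted p = 0.764).

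The same strains were also sequenced as L4 larvae. Of the 116 rises, 66 had all 3 L4 libraries of strain 2 above all 6 control L4 libraries and 2 had them below; of the 71 falls, 18 had them below and 2 above. Over the genes tested in adults, 4.79% were above and 4.98% below at L4 in this way. cup-4 at L4 stood at 37.3, 26.9 and 32.4 CPM in strain 2 against 7.49, 7.01 and 9.82 and 9.24, 10.1 and 6.06, and rpl-17 at 6180.1, 5610.1 and 5992 CPM against 2303, 1805 and 1849 and 2318, 2497 and 2147. unc-98 was 214, 186 and 197 CPM against 57.8, 41 and 52.5 and 69, 62.2 and 56.5. A test of the difference between stages, as an interaction over 18 libraries, called 346 of 16837 genes (2.05%), 221 with a larger value in adults (1.31%) and 125 with a smaller one (0.742%). Among the 116 rises, 22 had a larger and 7 a smaller difference in adults, and among the 71 falls 17 had a larger fall and 3 a smaller one. These genes were chosen by their adult difference, which is part of the interaction, so the choice itself favours larger differences in adults. dhs-26 is an example: at L4 it stood at 0.398, 0.857 and 1.31 CPM in strain 2 and at 2.03, 1.01 and 1.77 and 1.42, 0.876 and 1.65 in the controls, and its interaction was 3.49 ± 0.45 (SE, adjusted p = 6.46e-05).

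The genes the study names were measured in every library. mbl-1 (K02H8.1, chromosome X, 17001728 to 17008361) stood at 18.2, 14.8 and 13.8 CPM in strain 2, 10.5, 9.6 and 7.28 in 0CUG strain 1 and 20.3, 21.2 and 22.2 in 0CUG strain 2. Strain 2 lay between its controls, with log2 differences of 0.77 ± 0.18 (SE) from 0CUG strain 1 and -0.44 ± 0.17 from 0CUG strain 2 (adjusted p = 0.00475 and 0.0759). In 123CUG strain 1 mbl-1 was at 16.6, 19.3 and 15.2 CPM. K02H8.4 overlaps it on the same strand. None of the 6 carnitine palmitoyltransferase genes agreed against both controls. cpt-1 (Y46G5A.17, chromosome II, 12787830 to 12796452), which overlaps alkb-7 on the same strand, was at 151, 147 and 151 CPM in strain 2, 157, 158 and 150.3 in 0CUG strain 1 and 159, 145 and 147 in 0CUG strain 2 (log2 differences -0.051 ± 0.086 and -0.0058 ± 0.086, adjusted p = 0.767 and 0.975). cpt-2 was at 123, 144 and 111 CPM against 114.9, 136 and 114.8 and 150.1, 123 and 119.01. cpt-5 was higher than in 0CUG strain 1 (log2 1.16 ± 0.18, adjusted p = 0.000156) and not called against 0CUG strain 2 (log2 0.42 ± 0.18, adjusted p = 0.104). cpt-3, cpt-4 and cpt-6 were not called against either, with means in strain 2 of 0.835, 0.934 and 8.04 CPM.

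Of 41 gene lists, 28 held 0 agreeing genes. With 1.33% of all genes agreeing, a count of 0 in lists of these sizes is near that share and is no result about their members. 0 of 20 genes of mitochondrial fatty acid oxidation, 0 of 39 of nuclear oxidative phosphorylation, 0 of 12 of the mitochondrial genome, 0 of 14 of mitochondrial dynamics and mitophagy and 0 of 12 of the mitochondrial unfolded protein response were called against both. Over all genes, 9.10% were higher and 4.83% lower than in 0CUG strain 1, and 9.79% higher and 10.5% lower than in 0CUG strain 2. For fatty acid oxidation, 3 were higher and 2 lower than in 0CUG strain 1, and 4 were higher and 3 lower than in 0CUG strain 2. For oxidative phosphorylation, 2 were higher and 2 lower than in 0CUG strain 1, and 5 were higher and 2 lower than in 0CUG strain 2, with medians of 0.055 and 0.12 on the log2 scale, beside 0.012 and 0.013 over all genes. The lists of RNA metabolism gave 0 of 22 tissue splicing factors, 0 of 9 nonsense-mediated decay genes and 0 of 40 RNA interference genes, and the neuronal list 0 of 26. Of 19 cytosolic heat shock genes, 1 agreed: hsp-16.48 (T27E4.3, chromosome V), a small heat shock protein with a near-identical copy that can share its reads, at 1.35, 0.772 and 9.96 CPM against 0.784, 0.591 and 0.552 and 0.786, 0.518 and 0.671. The highest value came from replicate 3 and that of replicate 2 lay within the range of the controls, and the call was lost without replicate 3 of 123CUG strain 2, any replicate of 0CUG strain 1 or replicate 2 or 3 of 0CUG strain 2. It held in 6 of the 12 omissions.

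Some lists of the intestine and of lipid handling had members called higher than 1 control and lower than the other. Both comparisons share the strain 2 libraries, and over all genes 9.10% were higher and 4.83% lower than in 0CUG strain 1, and 9.79% higher and 10.5% lower than in 0CUG strain 2. Of 6 vitellogenin genes, 6 were higher and 0 lower than in 0CUG strain 1, and 0 were higher and 5 lower than in 0CUG strain 2. Of 35 lysozyme and saposin genes, 18 were higher and 1 lower than in 0CUG strain 1, and 2 were higher and 18 lower than in 0CUG strain 2. Of 21 cathepsins and aspartyl proteases, the digestive proteases of the gut and lysosome, 16 were higher and 0 lower than in 0CUG strain 1, and 0 were higher and 15 lower than in 0CUG strain 2. Of 24 genes of fatty acid synthesis and desaturation, 7 were higher and 0 lower than in 0CUG strain 1, and 0 were higher and 14 lower than in 0CUG strain 2. The medians on the log2 scale were 0.73 and -0.65 for the proteases and 0.67 and -0.57 for vitellogenins. Lists of the eggshell and cuticle had another pattern. Of 18 eggshell genes, 2 were higher and 12 lower than in 0CUG strain 1, and 1 was higher and 1 lower than in 0CUG strain 2. Of 96 cuticle collagens, 3 were higher and 19 lower than in 0CUG strain 1, and 5 were higher and 3 lower than in 0CUG strain 2. Vitellogenin reads were 98407 to 112919 CPM in total in strain 2 against 62145 to 76484 and 143985 to 170235 in the controls. They moved in the same directions as the lysozyme, protease and fatty acid lists, unlike the eggshell and collagen lists. The part of vitellogenin reads in any of these lists was not tested beyond a fit without the vitellogenin genes. That fit called 106 higher and 65 lower agreeing genes.

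**Figure D5:**
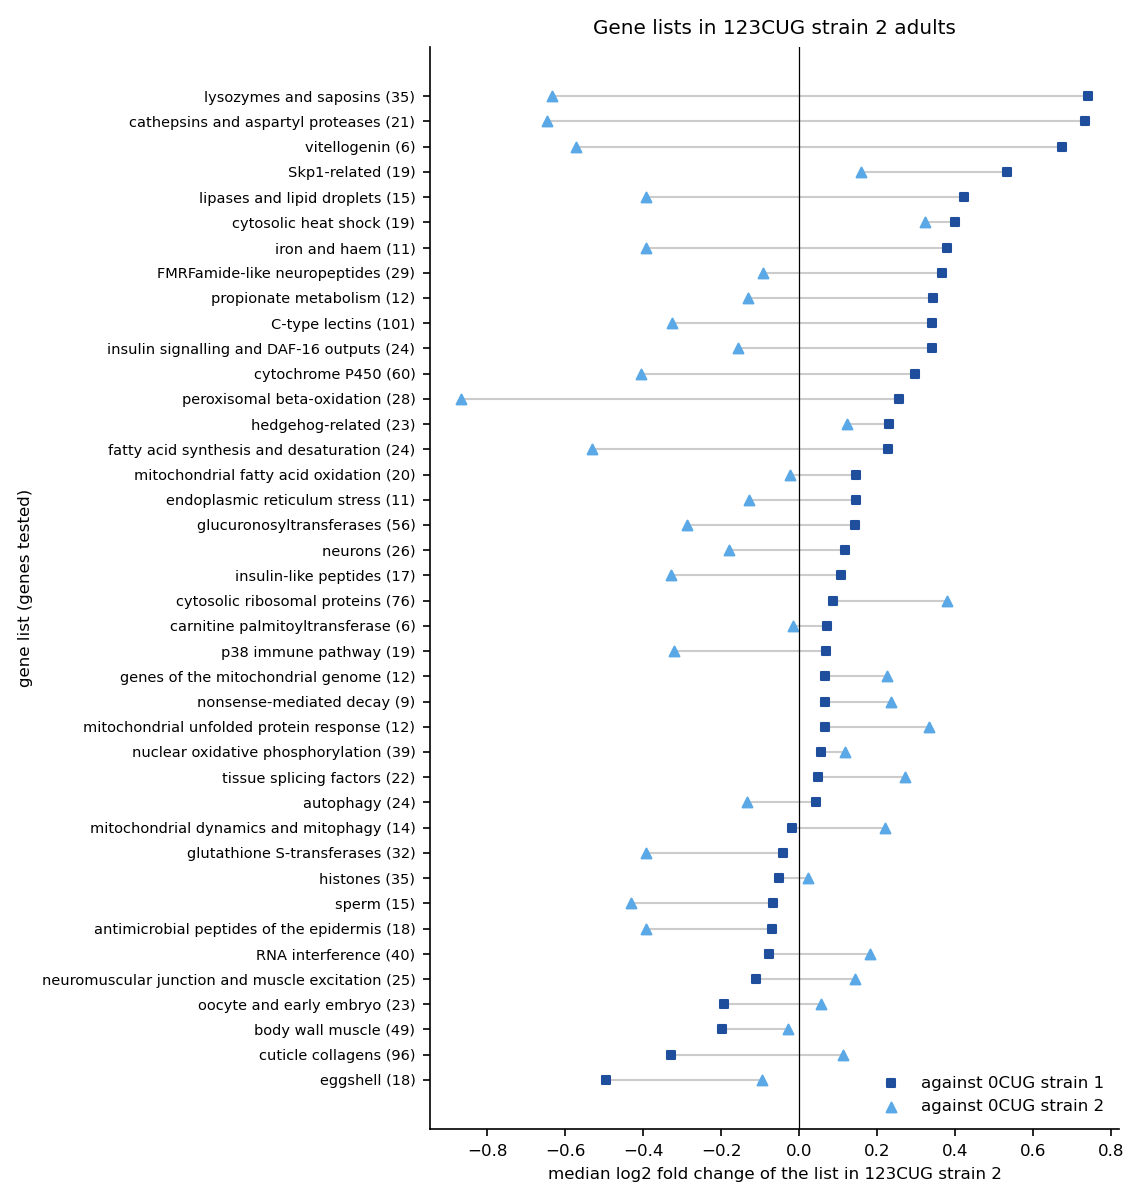
Median log2 fold change of each gene list with at least 6 genes tested in 123CUG strain 2 adults, against 0CUG strain 1 (dark squares) and 0CUG strain 2 (light triangles), with the number of genes tested in brackets. The paired markers fall on opposite sides of 0 for lists such as lysozymes, cathepsins and vitellogenins, and close to 0 on both for oxidative phosphorylation.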

How the data were processed

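Whole-animal RNA sequencing libraries were compared as deposited: whole-number read counts per gene that the authors produced, in tables of 6 libraries each. The submitters' processing notes name HISAT2, DESeq2 and WBcel235. The sources used here give no version, counting tool, annotation or strand setting, so reads may be shared by genes that overlap or are near-identical. From the log2 fold changes and adjusted p-values that the authors deposited beside the counts, only numbers of calls are cited.

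Joining gave 23990 genes with an identifier (of the count values that tables share, 465954 matched exactly and 0 did not). Neither library sizes nor tests include 499 loci without one, which hold 0.0367% to 0.0644% of reads in the adult libraries. Symbols came from Ensembl release 115 for 23668 identifiers, and 322 did not match. Counts were tested with edgeR 4.0.16 in R 4.3.3 (TMM scaling, filterByExpr, robust quasi-likelihood F test, Benjamini-Hochberg adjustment over 14070 genes). The fit held 12 transgenic adult libraries with a coefficient per strain, and the stage interaction 18 libraries. A gene agrees when its adjusted p is under 0.05 with the same sign against both 0CUG strains. CPM are on the TMM scale, and standard errors were derived from the F statistic.

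Members, lists and tests were chosen with earlier results of these data known. The genes named are, by rule, mbl-1 with myo-3 and the cpt family, the 10 largest agreeing rises and falls with a gene name, a mean of at least 5 CPM in the highest group and no overlap with the controls, up to 4 agreeing genes of that level per list, the largest rise and fall of any gene, and the 5 largest of each also called against 123CUG strain 1. The list of the mitochondrial genome was matched by chromosome after the data were seen. Replicate numbers did not pair the samples, and all pairs of replicates differed by more than sampling noise (median chi-square per gene 3.41 to 11.0, where noise gives 0.455). On simulated counts with 200 changed genes among 14070, agreement recovered 72% of 2-fold and 95% of 4-fold changes, and 1.18% of its 169 calls were false. Changed genes were drawn from those with a mean above 1 CPM and had the same mean in both control strains. Recovery was not measured at lower levels or where the controls differ. Unchanged genes were simulated with the same mean in every strain except 0CUG strain 1, which kept its own. Other differences between lines were not simulated, so the false share does not cover calls that come from them. Alternatives were DESeq2 1.42.0, other scalings, no filter, other sets of libraries and each library left out. Sequences were not used.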

Additional observations from a re-analysis of the deposited data

Results flagged for a closer look

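The difference of 123CUG strain 2 from the mean of both 0CUG strains was another in adults than at L4 for 346 genes by the interaction test of edgeR. The interaction is the log2 difference in adults minus that at L4, so a positive value means a higher level of strain 2 relative to its controls in adults. It was called for 9 named genes.

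Values above 0 were found for dhs-26, acox-1.2, clec-10, fipr-13 and ugt-26. dhs-26 had an interaction of 3.49 ± 0.45 (SE, adjusted p = 6.46e-05), with 22.5 CPM in strain 2 adults against 3.62 and 3.21 in the controls and 0.855 against 1.61 and 1.31 at L4. acox-1.2 had an interaction of 1.51 ± 0.22 (SE, adjusted p = 0.00037), with 50.4 CPM in strain 2 adults against 13.6 and 22.8 in the controls and 555 against 502 and 607 at L4. clec-10 had an interaction of 1.37 ± 0.24 (SE, adjusted p = 0.00197), with 21.1 CPM in strain 2 adults against 6.72 and 14.2 in the controls and 26.5 against 26.5 and 38.2 at L4. fipr-13 had an interaction of 1.07 ± 0.25 (SE, adjusted p = 0.0269), with 52.8 CPM in strain 2 adults against 12.33 and 17.7 in the controls and 17.1 against 12.4 and 8.04 at L4. ugt-26 had an interaction of 0.62 ± 0.16 (SE, adjusted p = 0.0427), with 74.6 CPM in strain 2 adults against 47.6 and 54.2 in the controls and 43.4 against 46.6 and 43.9 at L4.

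Values below 0 were found for gar-2, nlp-34, puf-5 and sysm-1. gar-2 had an interaction of -1.06 ± 0.25 (SE, adjusted p = 0.0264), with 6.41 CPM in strain 2 adults against 1.43 and 1.81 in the controls and 47.2 against 6.07 and 5.27 at L4. It was higher than the controls at both stages. nlp-34 had an interaction of -1.97 ± 0.44 (SE, adjusted p = 0.017), with 1.57 CPM in strain 2 adults against 4.24 and 6.24 in the controls and 14.8 against 18.8 and 7.99 at L4. puf-5 had an interaction of -1.66 ± 0.33 (SE, adjusted p = 0.00964), with 224 CPM in strain 2 adults against 369 and 293 in the controls and 4.56 against 2.93 and 1.58 at L4. sysm-1 had an interaction of -1.87 ± 0.43 (SE, adjusted p = 0.0264), with 20.9 CPM in strain 2 adults against 96.8 and 81.6 in the controls and 0.869 against 1.41 and 0.74 at L4. At L4 sysm-1 was read at these low levels in all 3 strains.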

How the results depend on the processing

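Counts are genes higher and lower. The agreement against both controls gave 116 and 71; it gave 116 and 101 with DESeq2, 107 and 79 with RLE and 93 and 70 with upper-quartile scaling, 120 and 123 with no low-count filter, 106 and 65 without vitellogenins, a total of 161 in a fit of 9 libraries (155 of them among the 187), 83 and 33 with each pair in a fit of its own 6 libraries and 72 and 29 when at least 2-fold was required. DESeq2 shared 180 of its 217 genes with the 187. Calls of at least 2-fold numbered 403 and 270 against 0CUG strain 1, 127 and 539 against 0CUG strain 2, 144 and 105 against the mean of both (347 and 286 with no fold required), 341 and 1653 between the controls and 140 and 216 against 123CUG strain 1. With no filter the higher genes against 0CUG strain 2 numbered 890, and the lower genes 508 against the mean, 815 against 123CUG strain 1 and 189 for the interaction (125 with the filter, with 221 higher). DESeq2 gave 507 lower against the mean and 379 and 310 for the interaction. Upper-quartile scaling left 880 higher against 0CUG strain 2. Fits of 6 libraries gave 173 higher against 123CUG strain 1, 812 against 0CUG strain 1 and 441 against 0CUG strain 2. Without both replicate 2 libraries that stood apart, a setting chosen after seeing the data, counts were 639 and 322 against 0CUG strain 1, 871 higher against 0CUG strain 2, 156 higher against the mean and 65 and 51 in agreement. The causes were not tested. Leaving out 1 library gave 77 to 126 higher and 38 to 91 lower in agreement, 793 to 2078 higher and 386 to 1034 lower against 0CUG strain 1, 519 to 1982 higher and 852 to 1652 lower against 0CUG strain 2, 177 to 588 higher and 161 to 326 lower against the mean, 1906 to 3394 higher and 2572 to 3497 lower between the controls, 146 to 306 higher and 283 to 553 lower against 123CUG strain 1 and 144 to 355 higher and 77 to 169 lower for the interaction. An omission leaves 2 libraries in a strain.

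With the replicate number as a block, 124 and 88 genes agreed, of which 180 are among the 187; the same numbers share no origin in the labels, and deviations of same-numbered libraries correlated at -0.037 to 0.058 except 0.238 between the replicate 2 libraries that stood apart. Of 840 repeats over 42 named genes, 739 kept direction and call, 95 lost the agreement, 1 gained it and 5 turned: cpt-2, near 0 throughout, came to 0.015, 0.041, 0.052 and 0.085 when 1 library was left out (lowest of all omissions -0.13), and cpt-6 to 0.00058 without both replicate 2 libraries. Agreement often ended with 1 library left out for genes under about 1 CPM. It also ended at higher levels, as for C10C5.4 (29.5 CPM in strain 2), which agreed in 1 of the 12 omissions. The part of depth in this was not tested.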

Other observations

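Several genes known from the early embryo were called higher in 123CUG strain 2 adults, which carry embryos, than in both controls. They were put together after the values were seen and have no test as a group. Without both replicate 2 libraries that stood apart, tbx-37, tbx-38, tbx-33, tbx-11, vet-1 and sdz-33 were not called, while vet-2 and dsl-2 were. tbx-37 and tbx-38, near-identical T-box factors of the early embryo whose reads can be shared, were at 0.968 CPM against 0.085 and 0.119 and at 1.81 CPM against 0.124 and 0.434. tbx-33 and tbx-11, of the same family, were at 5.4 CPM against 2.31 and 2.77 and at 2.12 CPM against 0.647 and 0.782. vet-1 and vet-2, named as very early transcripts, were at 5.49 CPM against 2.45 and 2.49 and at 16.15 CPM against 6.43 and 9.67, dsl-2, a Notch ligand gene, at 5.33 CPM against 1.67 and 2.41, and sdz-33, named for zygotic dependence on SKN-1, at 1.77 CPM against 0.262 and 0.214. Most of these levels are low, and the 8 genes agreed in 2 to 10 of the 12 fits that left out 1 library. In 123CUG strain 1 the means were 1.15 CPM for tbx-37, 2.26 for tbx-38, 4.12 for tbx-33, 2.23 for tbx-11, 7.26 for vet-1, 15.2 for vet-2, 6.36 for dsl-2 and 0.664 for sdz-33. None of the 8 was called between the lines with repeats (adjusted p from 0.395 to 0.97 in edgeR). At L4, before embryos form, tbx-37, tbx-38 and dsl-2 had no read in the 9 libraries, while sdz-33 stood at 4.2, 3.62 and 4.79 CPM in strain 2 against 0.193 and 0.0705 in the controls. On the list of 23 oocyte and early embryo genes, 0 were higher than both controls.

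Single genes outside the naming rule also stood out after their values were seen. egl-1, the BH3-domain trigger of programmed cell death, was lower at 0.873, 0.386 and 0.398 CPM against 7.48, 3.88 and 3.15 and 2.84, 0.888 and 1.31, but the agreement held in 3 of the 12 omissions (without replicate 2 of 123CUG strain 1, replicate 1 of 123CUG strain 2 or replicate 2 of 0CUG strain 2) and not without both replicate 2 libraries that stood apart. egl-8, a phospholipase C beta of the motor circuit and intestine, was lower at 54.5, 53 and 39.6 CPM against 88.8, 100.7 and 94 and 61.8, 66.7 and 71.1, and 159.9, 167 and 162 CPM in 123CUG strain 1; the agreement ended without replicate 3 of 0CUG strain 2. T22B7.7 and C30G12.2, which the symbols used here do not name, stood at 197, 224 and 213 and 77.1, 107 and 60.3 CPM in strain 2, with means of 43.2 and 74.5, and of 10.5 and 17.2, in the controls and of 209 and 90.8 in 123CUG strain 1. At L4 both were lower in strain 2 than in the controls, 20.5 CPM against 53.3 and 44.2, and 31.5 CPM against 47.2 and 42.3, with called interactions (adjusted p = 6.99e-07 and 2.57e-05).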
